A study of Homo sapiens with 4 samples.

Results

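The 10 genes followed here encode proteins that cells make in response to interferons: IFI44, IFI44L, IFI6, IFI27, IFI35, ISG15, USP18, MX1, MX2 and BST2. They were chosen by gene symbol in the deposited target names, which held 1 target for each symbol among 20322 targets. All 10 passed the filter on low counts. The RNA came from HT-29, an established human colorectal adenocarcinoma line, and every library comes from cells in which the gene of IMP1 (symbol IGF2BP1), an RNA-binding protein, had been targeted with CRISPR/Cas9. The control group, called null, carried an empty PiggyBac vector (PB*-empty), and the other group, called IMP1-OE, carried PB*-FLAG-IMP1-short UTR, a vector that puts FLAG-tagged IMP1 back. The labels give a mouse liver metastasis as the origin of the tumour cells and puromycin in the medium of all cells. Whether mouse host cells remained among them is not given. The design text counts 2 cell lines for each genotype, with 1 library of each, and gives no word on clones or parallel cultures. Hence p-values measure the spread between these libraries. That spread may lie between the cell lines or be technical, and with 1 library of each line these cannot be told apart. The comparison asks what changes when IMP1 is put back into cells in which it was targeted.

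Type I and type III interferons bind receptors whose kinases, JAK1 and TYK2, activate transcription factors. STAT2 and IRF9 are part of the complex that then binds a promoter element called the interferon-stimulated response element, and the genes behind such elements, among them those described here, are then transcribed. Epithelial tumour lines can hold such genes at a low level without added interferon, and double-stranded RNA or DNA in the cytosol can raise them through sensor proteins and secreted interferon. Their products block steps of viral replication, and some, such as USP18, switch the signal off.

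What the members share in sequence is shown first, since a common element is the feature by which they are known to respond together. RefSeq promoter windows (GRCh38.p14), which run from 250 bases before to 50 bases after an annotated start, were found for 8 of the 10 genes, all but MX2 and USP18. The core of the response element was searched as GAAANNGAAA on both strands. It occurred in at least 1 window of 7 of these 8 genes, whereas 4.38% of the 27305 genes with a window of this length held it. IFI35 had no match in its window. The sequences below give, in the direction of the gene, the match nearest to and before the start for each of the 7 genes, with the core in capitals (TTTC first where the match is on the opposite strand).
ISG15: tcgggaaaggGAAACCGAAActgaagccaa
BST2: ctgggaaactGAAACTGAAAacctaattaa
IFI27: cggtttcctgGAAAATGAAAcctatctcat
IFI6: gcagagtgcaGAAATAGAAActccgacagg
IFI44L: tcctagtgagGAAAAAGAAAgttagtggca
IFI44: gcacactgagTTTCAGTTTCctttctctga
MX1: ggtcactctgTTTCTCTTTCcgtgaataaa

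These stretches lie at chr1:1013380-1013409 (ISG15, plus strand), chr19:17405735-17405764 (BST2, minus strand), chr14:94110631-94110660 (IFI27, plus strand) and chr1:27672266-27672295 (IFI6, minus strand). Those of the remaining genes lie at chr1:78620365-78620394 (IFI44L), chr1:78649761-78649790 (IFI44) and chr21:41431844-41431873 (MX1), all on the plus strand. The first base of the core stands at -107 from the annotated start for ISG15, -124 for BST2, -95 for IFI27, -93 for IFI6, -73 for IFI44L, -18 for IFI44 and -196 for MX1. The positions are from 1 of the starts where a gene has several. In MX1 another annotated start has a match 11 bases after it, and in IFI27 a match on the opposite strand begins at -108. ISG15 and BST2 each hold another match that overlaps the printed one, beginning at -113 and -130. IFI6 holds further matches at -115 and -156, and in IFI44L the printed 30 bases, core and flanks, occur again with the core at -164. The genes have 1 to 3 annotated starts, and which start the measured RNA used is not known from counts. A shorter element, TTCNNNGAA, known from genes that respond to interferon gamma, occurred in windows of 4 of the 8 genes (BST2, IFI27, IFI35 and MX1), against 9.38% of all genes with a window. A match of letters is a description of the promoter and was not tested as a binding site.

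Library totals ran from 9343429 to 10594813 counts. A count of 0 allows up to 3 counts, which is 0.285 to 0.328 CPM (counts scaled to library size, here by TMM), and these floors and the intervals below cover counting error only. IGF2BP1, the targeted gene, had 37 and 16 counts in null replicates 1 and 2, and 71 and 112 counts with IMP1 put back. Its groups did not overlap, in the direction of the labels, where 2577 of the 12113 genes tested were separated that way. Its edgeR log2 fold change was 1.69 (SE 0.56) with an adjusted p of 0.453, so it was not called. ARSI alone took 8.01% to 17.8% of the counts of a library. Null replicate 2 stands apart from the other libraries in the genes described here, so it is given apart from null replicate 1, and the fitted values of the members and the list summaries are given with and without it. Of the genes tested, 10.4% were at least 2 times as high in null replicate 2 as in null replicate 1. In bulk RNA, a response in a fraction of the cells and a response of all cells cannot be told apart.

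All 10 genes were far higher in null replicate 2 than in any other library. The excess over null replicate 1 was at least 2-fold for all 10, where 10.4% of all genes tested reach this, and ran from 4.37-fold (BST2) to 78.2-fold (IFI44L) with a median of 10.2-fold, against a median of 1.00 over all genes. Null replicate 1, in contrast, lay close to the IMP1-OE libraries, with ratios to their mean from 0.757 to 1.80 and a median of 1.16. None of the 10 reached 2-fold in that comparison, which 5.55% of all genes did. Together the 10 genes took 0.522% of the counts of null replicate 2 and 0.0462% to 0.0623% of the counts of each other library.

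**Figure D1:**
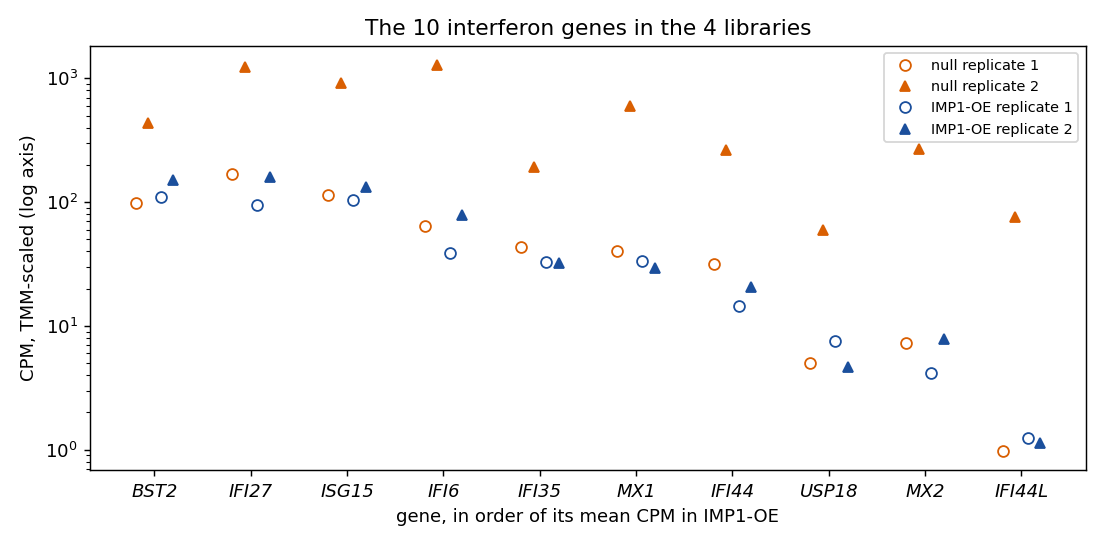
CPM (TMM-scaled, log axis) of each of the 10 genes in each library, with genes in order of their mean in IMP1-OE. Orange marks null and blue IMP1-OE, circles replicate 1 and triangles replicate 2. The filled orange triangle of null replicate 2 is the highest point for every gene, and the other 3 points of a gene lie near each other.

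ISG15 encodes a ubiquitin-like protein that is joined to other proteins after interferon. It stood at 114 CPM in null replicate 1, 921 CPM in null replicate 2, 103 CPM in IMP1-OE replicate 1 and 132 CPM in IMP1-OE replicate 2. Null replicate 1 lay between the IMP1-OE libraries, so the groups overlapped, and null replicate 2 was 8.05-fold above null replicate 1 (95% counting interval 7.58 to 8.57). The fitted log2 fold change, IMP1-OE over null, was -2.13 (SE 0.87) over all 4 libraries and 0.044 (SE 0.20) when null replicate 2 was left out.

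USP18 encodes the protease that removes ISG15 from proteins and also blocks the type I receptor. Its level was 4.99 CPM in null replicate 1, 59.8 CPM in null replicate 2, and 7.61 and 4.66 CPM in the IMP1-OE libraries. The groups overlapped again, with null replicate 1 between the IMP1-OE values, and the null libraries differed 12.0-fold (interval 8.98 to 16.3). Its counts of 51, 80 and 49 outside null replicate 2 are among the lowest of the members, and its near-identical copy USP41 can share its fragments, so its value is uncertain. USP41 itself had counts of 34 (null replicate 1), 199 (null replicate 2), 26 and 43 (IMP1-OE), and the same library was the highest for both targets. The log2 fold change of USP18 was -2.39 (SE 1.05) over all 4 libraries and 0.30 (SE 0.55) when null replicate 2 was left out.

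MX1 and MX2 encode dynamin-like GTPases that trap viral nucleocapsids, in the cytoplasm and near the nuclear pore. They are neighbours on chromosome 21. MX1 stood at 40.4 CPM in null replicate 1, 603 CPM in null replicate 2, and 33.7 and 29.3 CPM in IMP1-OE. Here the groups did not overlap, because null replicate 1 was above the higher IMP1-OE library. It was 1.28-fold above the IMP1-OE mean. MX2 stood at 7.34 CPM in null replicate 1, 268 CPM in null replicate 2, and 4.19 and 7.79 CPM in IMP1-OE. Its groups overlapped. Null replicate 2 exceeded null replicate 1 by 14.9-fold for MX1 (interval 13.5 to 16.5) and by 36.6-fold for MX2 (29.1 to 46.7), so the gene with the lower level showed the larger ratio. The log2 fold change of MX1 was -3.35 (SE 1.12), and -0.36 (SE 0.21) without null replicate 2. For MX2 it was -4.52 (SE 1.51), and -0.29 (SE 0.54) without that library.

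IFI6 and IFI27 encode small hydrophobic proteins of mitochondria and the endoplasmic reticulum. IFI6, known to protect cells from apoptosis, stood at 64.2 CPM in null replicate 1, 1276 CPM in null replicate 2, and 38.7 and 79.5 CPM in IMP1-OE. It showed the widest spread between the IMP1-OE libraries among the 10 genes, 2.05-fold, and null replicate 1 lay within that spread. IFI27 stood at 169 CPM in null replicate 1, 1240 CPM in null replicate 2, and 94.7 and 161 CPM in IMP1-OE. Null replicate 1 was above both IMP1-OE libraries for IFI27, but above the higher of them by far less than those 2 libraries differed from each other (1.70-fold). The genes on either side of IFI27, its relatives IFI27L1 and IFI27L2, did not share its excess, with 59 and 58 counts for IFI27L1 and 44 and 50 for IFI27L2 in the null libraries. Without null replicate 2 the log2 fold change was -0.12 (SE 0.40) for IFI6, from -3.50 (SE 1.26), and -0.40 (SE 0.30) for IFI27, from -2.46 (SE 0.87).

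IFI44 and IFI44L are related genes that lie next to each other on chromosome 1 and encode cytoplasmic proteins. IFI44 had the largest distance between null replicate 1 and IMP1-OE of the 10 genes. It stood at 31.5 CPM in null replicate 1, 264 CPM in null replicate 2, and 14.4 and 20.6 CPM in IMP1-OE, so the groups did not overlap and null replicate 1 was 1.80-fold above the IMP1-OE mean. Without null replicate 2 its log2 fold change was -0.85 (SE 0.29), with an edgeR unadjusted p of 0.0282 and an adjusted p of 0.303. IFI44L was the lowest of the genes, at 10 counts in null replicate 1, 13 and 12 in IMP1-OE, and 699 in null replicate 2 (0.978, 1.24, 1.14 and 76.5 CPM). Its 78.2-fold ratio between the null libraries has a counting interval of 42.3 to 164, since it rests on 10 counts below. Its log2 fold change was -5.01 (SE 1.76) over all 4 libraries and 0.28 (SE 1.03) when null replicate 2 was left out.

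IFI35, a leucine zipper protein that binds the interferon-induced protein NMI, stood at 43.1 CPM in null replicate 1, 192 CPM in null replicate 2, and 33.1 and 32.0 CPM in IMP1-OE. Its groups did not overlap, and its IMP1-OE libraries differed least among the 10 genes. BST2, or tetherin, a membrane protein that holds budding virions at the cell surface, stood at 99.1 CPM in null replicate 1, 433 CPM in null replicate 2, and 109 and 152 CPM in IMP1-OE. For BST2 null replicate 1 was the lowest of the 4 libraries. These 2 genes showed the smallest ratios between the null libraries, 4.44-fold for IFI35 (interval 4.00 to 4.94) and 4.37-fold for BST2 (4.08 to 4.69). The log2 fold change of IFI35 was -1.85 (SE 0.65), and -0.40 (SE 0.19) without null replicate 2. That of BST2 was -1.02 (SE 0.64), and 0.40 (SE 0.23) without it.

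**Figure D2:**
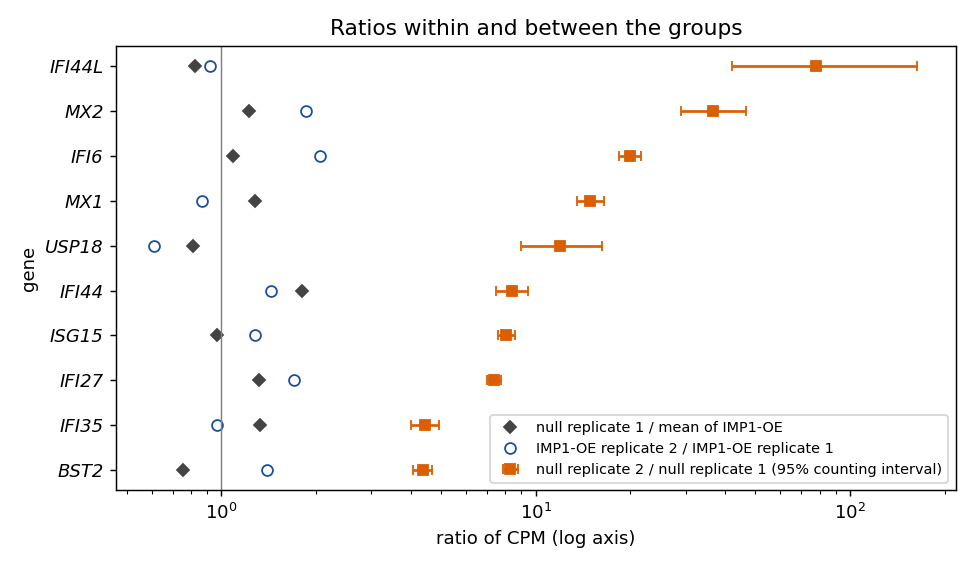
Ratios of CPM for each gene (log axis). Squares give null replicate 2 over null replicate 1 with its 95% counting interval, diamonds null replicate 1 over the mean of IMP1-OE, and open circles IMP1-OE replicate 2 over replicate 1. The squares run from 4.37 to 78.2, while the diamonds (0.757 to 1.80) and circles (0.612 to 2.05) scatter around 1.

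In the test of IMP1-OE against null with edgeR, the adjusted p was above 0.05 for all 10 genes, and 0 of the 12113 genes tested (0%) were called. Adjusted p ran from 0.450 (IFI44) to 0.623 (BST2). All 10 fitted values were below 0, with a median log2 fold change of -2.77 against -0.02 over all genes tested, from -5.01 for IFI44L (SE 1.76) to -1.02 for BST2 (SE 0.64). At an edgeR unadjusted p under 0.05 there were 8 of the 10, all but USP18 (0.0625) and BST2 (0.159), where 5.84% of all genes were lower in IMP1-OE at that p. DESeq2 gave 6 of the 10 and limma-voom 0 at an unadjusted p under 0.05, and 0 of the 10 passed an adjusted p with either tool. DESeq2 called 0.849% of its 12836 genes as lower in IMP1-OE. The authors' deposited table calls 0 of the 10, and 160 of the 12113 genes tested here. Its adjusted p for the 10 genes, from 0.290 (MX2) to 0.879 (BST2), are those DESeq2 gave here. It is therefore no separate evidence. For IFI44 and MX2, p in the authors' deposited table (0.0170 and 0.0140) equals that of DESeq2 run here to 3 digits. The log2 fold changes differ, at -0.04 and -0.02 in the authors' deposited table and -3.07 and -4.51 from DESeq2 here. For the 10 genes the deposited fold changes are therefore not on the scale of the counts and are not read as sizes of change. This does not hold for every gene. Of 2 genes called in the authors' deposited table, ISG20 had -1.63 there and -1.82 in edgeR here, and HERC5 had -0.06 and -5.75. How the deposited fold changes were made is not stated.

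The groups did not overlap for 4 of the 10 genes, IFI44, IFI27, IFI35 and MX1, all lower in IMP1-OE, where 21.9% of all genes tested were separated in that direction. For 4 genes (ISG15, USP18, IFI6 and MX2) null replicate 1 lay between the IMP1-OE libraries, and for IFI44L and BST2 it lay below both.

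The result of the test turned on which null library was present. Without null replicate 1, all 10 genes passed as lower in IMP1-OE, with edgeR adjusted p from 6.80e-04 to 0.0125 and log2 fold changes from -5.99 to -1.73, where 3.68% of all genes passed in that direction. That fit has 1 null library, which is assumed to vary as the IMP1-OE libraries do. Without null replicate 2, 0 of the 10 passed (edgeR adjusted p 0.303 to 0.943, 1 gene, IFI44, at an unadjusted p under 0.05), where 0.248% of all genes passed as lower. The 10 genes then had a median of -0.21 on the log2 scale, and 6 of the 10 values were below 0 and 4 above it (IFI44L, ISG15, USP18 and BST2).

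**Figure D3:**
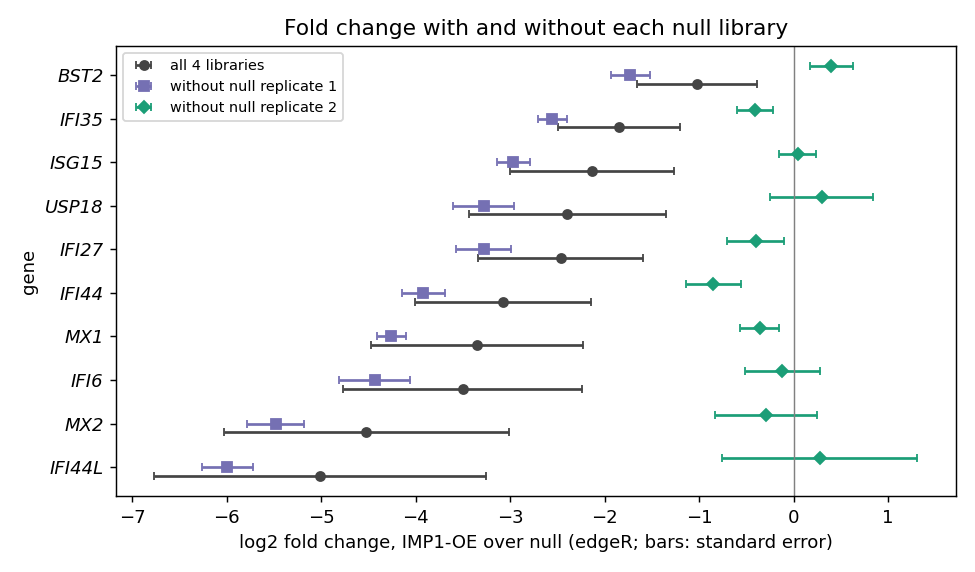
Log2 fold change, IMP1-OE over null, of each gene from edgeR with all 4 libraries (circles), without null replicate 1 (squares) and without null replicate 2 (diamonds). Bars are standard errors. Without null replicate 2 the values run from -0.85 (IFI44) to 0.40 (BST2), and with either other set all lie below 0.

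Compared per length, as TPM (a level per length within a library) computed from the counts and the deposited effective lengths, the members covered a wide range within each library. In IMP1-OE the order of mean levels (± SD, n = 2) was ISG15 at 355 ± 57.7 TPM, IFI27 at 336 ± 119 TPM, BST2 at 247 ± 54.4 TPM and IFI6 at 123 ± 58.6 TPM. These were followed by IFI35 at 49.9 ± 1.77 TPM, IFI44 at 19.5 ± 4.71 TPM, MX1 at 16.8 ± 1.87 TPM, USP18 at 6.20 ± 2.18 TPM, MX2 at 3.27 ± 1.36 TPM and IFI44L at 0.379 ± 0.0263 TPM. The ranges of ISG15 and IFI27, of IFI27 and BST2, and of IFI44 and MX1 overlapped, and the other neighbours in this order did not.

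In null replicate 2 the order was partly different. IFI27 stood at 3282 TPM, ISG15 at 2788 TPM and IFI6 at 2672 TPM, the 21st, 27th and 31st of all targets of that library by TPM. In null replicate 1 the same genes ranked 364, 464 and 1111. BST2, above IFI6 in the other libraries, was below it here at 824 TPM. MX2 was above USP18, with 147 and 60.5 TPM, whereas USP18 was the higher in the other 3 libraries. IFI6 made up 23.9% of the members' counts in null replicate 2 and 8.79% to 12.8% elsewhere, while BST2 made up 8.12% there and 17.2% to 24.8% elsewhere. Across the 10 genes, a lower mean TPM in IMP1-OE went with a larger ratio between the null libraries (Spearman's rho -0.73 across genes, n = 10, a description, since the genes come from the same libraries). Null replicate 1 divides that ratio and lay close to the IMP1-OE mean, so a negative rho is partly built in.

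Both null libraries stood above both IMP1-OE libraries for 5 of 6 genes of ISG15 conjugation, the set of enzymes that attach ISG15 to proteins, where 21.9% of all genes tested were separated in that direction. Of the 6 genes 5 were lower in IMP1-OE at an edgeR unadjusted p under 0.05, against 5.84% of all genes tested, and 0 passed the adjusted p. UBE2L6, the conjugating enzyme, had 31 and 637 counts in null replicates 1 and 2, and 2 and 7 counts in IMP1-OE. HERC5, the main ligase, had 11 and 96 counts in null and 1 and 1 in IMP1-OE, and UBA7, the activating enzyme, 72 and 198 against 38 and 24. For ISG15 and USP18 themselves null replicate 1 lay between the IMP1-OE libraries, and the difference between the enzymes and ISG15 was not tested. The authors' deposited table calls HERC5 (adjusted p = 0.0165) and UBE2L6 (adjusted p = 0.0474), where it calls 160 of the 12113 genes tested here. Without null replicate 2 the edgeR log2 fold changes were -3.34 for HERC5, -2.79 for UBE2L6 and -1.25 for UBA7. The IMP1-OE counts of HERC5 and UBE2L6 lie at or near the floor of 3 counts, and 1 null library remains. The sizes of their changes are therefore uncertain. The median of the 6 genes was -2.60 over all 4 libraries and -0.88 when null replicate 2 was left out. HERC6, a relative of HERC5, stood at 15.3 and 157 CPM in null and 10.5 and 12.1 CPM in IMP1-OE, and TRIM25, a ligase that also carries ISG15, at 116 and 217 CPM against 82.1 and 81.4 CPM. ARIH1, a ligase with many other substrates, stood at 60.6 and 71.4 CPM against 65.2 and 80.8 CPM.

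**Figure D4:**
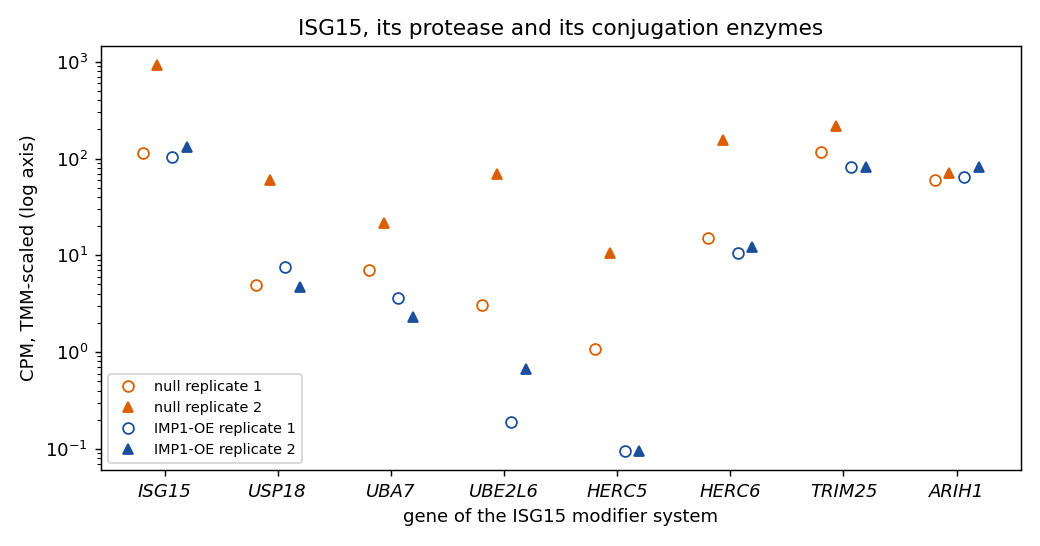
CPM (TMM-scaled, log axis) in each library of ISG15, of USP18, which removes it, and of 6 genes of its conjugation. Orange marks null and blue IMP1-OE, circles replicate 1 and triangles replicate 2. For UBA7, UBE2L6, HERC5, HERC6 and TRIM25 both orange points lie above both blue points, whereas for ISG15 and USP18 the orange circle lies between the blue points.

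The interferon pathway around the members was read from lists of 87 genes in the table, 68 of them tested. Of these, 63 were lower and 5 higher in IMP1-OE. Their median was -1.33 on the log2 scale, against -0.02 over all genes tested. In edgeR 0 passed the adjusted p, and 35 were lower and 0 higher at an unadjusted p under 0.05. Of all genes tested, 5.84% were lower at that p. Null replicate 2 was at least 2 times null replicate 1 for 50 of the 68, against 10.4% of all genes tested. The median ratio of the 68 was 3.30. Their median was -0.15 without null replicate 2, with 44 lower and 24 higher, and 1 gene, ISG20, passed as lower (edgeR adjusted p = 0.0401). Without null replicate 1 the median of the 68 was -1.95, against -0.0033 over all genes tested, with 64 lower and 4 higher. The genes were listed with earlier results of these data known, so the counts describe them and are no independent evidence.

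None of the 10 interferon genes listed as ligands passed the filter on low counts. IFNE had 2 and 11 counts in null replicates 1 and 2 and 1 and 3 in IMP1-OE, IFNL1 1 and 7 against 0 and 1, and IFNW1 0 and 5 against 0 and 0. IFNL3 and IFNL2 were highest in IMP1-OE replicate 1, with 4 and 0 counts in null against 7 and 2 for IFNL3, and 0 and 0 against 4 and 0 for IFNL2. IFNB1 had at most 3 counts in any library, and IFNG, IFNK and IFNA2 had 0 in all 4. At this depth, differences in these ligands were not detectable. Of the receptors, 5 were tested and 0 passed, with a median of -0.49 and of -0.42 without null replicate 2. Against 10.4% of all genes tested, 2 of the 5 were at least 2 times as high in null replicate 2 as in null replicate 1. These were IFNLR1, of the type III receptor, at 2.64 and 5.80 CPM in null against 2.57 and 2.38 CPM in IMP1-OE, and IL10RB, its partner chain, at 5.48 and 12.6 CPM against 9.33 and 6.08 CPM. IFNGR2 had 125 and 137 counts in null against 116 and 76. In the other two, null replicate 1 was the higher null library, with IFNGR1 at 89.5 and 78.0 CPM in null against 60.7 and 58.8 CPM in IMP1-OE and IFNAR1 at 18.9 and 15.0 CPM against 15.5 and 11.3 CPM. IFNAR2, a chain of the type I receptor, had 0 and 7 counts in null and 9 and 17 in IMP1-OE.

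Of 10 signalling factors tested, 9 were lower in IMP1-OE, with a median of -0.65 and 0 passing. Leaving out null replicate 2, 7 were lower and 3 higher, with a median of -0.17. Null replicate 2 was at least 2 times null replicate 1 for 5 of them, against 10.4% of all genes tested. Their median ratio was 1.84. STAT2 stood at 59.5 and 141 CPM in null and 53.7 and 37.5 CPM in IMP1-OE, and IRF9 at 49.0 and 125 CPM against 33.3 and 37.4 CPM. IRF1 stood at 53.1 and 86.8 CPM against 37.2 and 44.6 CPM, and IRF3 at 95.0 and 127 CPM against 79.1 and 75.8 CPM. IRF7, which drives interferon genes, stood at 46.7 and 158 CPM against 37.7 and 47.1 CPM, whereas the kinase gene JAK1 stood at 105 and 89.5 CPM against 111 and 82.8 CPM. Of the sensors, 7 were tested, 4 lower and 3 higher, and 0 passed. Their median was -0.95 over all 4 libraries and -0.04 when null replicate 2 was left out. DDX58, the gene of the RNA sensor RIG-I, had 221 and 1313 counts in null and 66 and 0 in IMP1-OE, so IMP1-OE replicate 2 held no count of it. DHX58 stood at 11.1 and 32.1 CPM in null and 8.85 and 5.61 CPM in IMP1-OE. IFIH1 stood at 20.6 and 111 CPM against 19.1 and 21.0 CPM, and TLR3 at 4.69 and 7.99 CPM against 2.95 and 3.61 CPM. STING1, an adaptor for DNA sensing, was lowest in null replicate 1, with 92 counts, and had 367 counts in null replicate 2 and 288 and 272 in IMP1-OE.

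All 40 tested genes among the other interferon-stimulated effectors were lower in IMP1-OE, with a median of -1.64. Of the 40, 23 were at an edgeR unadjusted p under 0.05, where 5.84% of all genes tested were lower, and 0 were past the adjusted p. When null replicate 2 was left out, 24 were lower and 16 higher, with a median of -0.12. Null replicate 2 was at least 2 times null replicate 1 for 35 of them, against 10.4% of all genes tested. IFITM1, a membrane protein against viral entry, stood at 7.73 and 480 CPM in null and 8.18 and 8.27 CPM in IMP1-OE, a ratio between null libraries of 62.1. The authors' deposited table calls ISG20 (adjusted p 0.00111), IFIT2 (0.00935), OASL (0.0183) and RTP4 (0.00938), where it calls 160 of the 12113 genes tested here. ISG20, an exonuclease gene, stood at 49.6 and 30.9 CPM in null and 10.3 and 12.5 CPM in IMP1-OE, so null replicate 1 was the higher null library. IFIT2, which binds viral RNA, stood at 14.8 and 37.2 CPM against 6.57 and 3.33 CPM, and OASL, a relative of the oligoadenylate synthetases, at 34.8 and 71.6 CPM against 14.2 and 20.2 CPM. In these 3 genes both null libraries were above both IMP1-OE libraries. RTP4 had 6 and 84 counts in null and 0 and 0 in IMP1-OE and did not pass the filter on low counts. PARP10, an ADP-ribosyltransferase gene, stood at 20.0 and 119 CPM in null and 14.0 and 12.9 CPM in IMP1-OE.

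**Figure D5:**
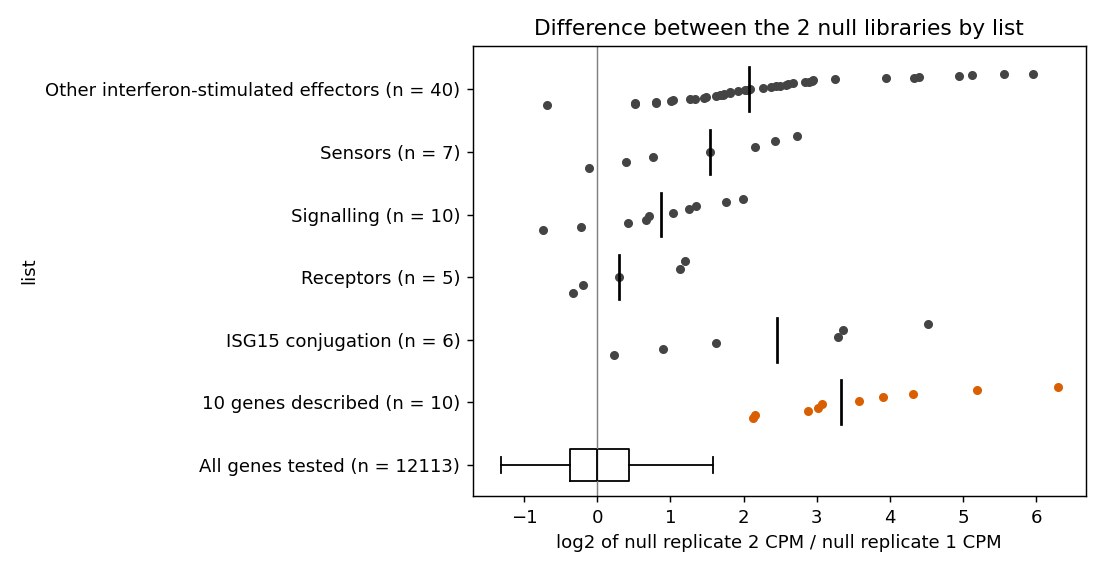
Log2 ratio of CPM in null replicate 2 to null replicate 1 for the tested genes of each list. The box shows the quartiles of all genes tested with whiskers at the 5th and 95th percentiles, points are genes and black bars list medians. The 10 genes described (orange, median ratio 10.2) lie beyond the upper whisker at a ratio of 2.99, and the receptors have the lowest list median (1.23), with 2 of 5 above a ratio of 2.

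Outside the 10 members, the genes whose pattern over the 4 libraries was most like their median were LOXL1, HERC6, GBP4, DDX60 and WNT10A. Likeness was the distance between log2(CPM + 1) values centred on each gene's mean, and these 5 lay at 0.176 to 0.399, against a median of 3.03 for all other genes. LOXL1, a collagen cross-linking enzyme gene, stood at 2.25 and 35.5 CPM in null and 1.52 and 2.19 CPM in IMP1-OE, and WNT10A, a Wnt ligand gene, at 1.76 and 24.4 CPM against 0.761 and 0.856 CPM. GBP4, a guanylate-binding protein gene, stood at 2.15 and 31.0 CPM against 2.19 and 2.66 CPM. Of the 20 nearest genes, 9 were on the interferon lists, which held 68 of the 12113 genes tested. LOXL1, WNT10A and GBP4 were not. The lists are not complete, so absence from them does not make a gene unrelated to interferon.

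Markers of other cell types were read beside these values. The colorectal epithelial list was present, with all 10 genes above the floor in some library. Its summed level was 20485 CPM in null replicate 2 and 25954 to 27978 CPM in the other libraries. Of its members, CDX1 and CDX2, intestinal transcription factors, had 9 and 47 counts in null replicate 1 and at most 3 in the others, and CDH17 had 126 counts there against 4, 8 and 29. Of the plasmacytoid dendritic cell markers, cells known for high interferon output, CLEC4C, GZMB and LILRA4 had 0 counts in all 4 libraries, and the summed list reached at most 1.05 CPM. The summed leukocyte list was lowest in null replicate 2 (1447 CPM, against 1759 to 2836 CPM), nearly all of it LYZ, which epithelial cells also express. PTPRC had 0 counts in 3 libraries and 5 in IMP1-OE replicate 2, and CD3E had 0 in all. Of the leukocyte list, CD14 was highest in null replicate 2, at 52.3 CPM against 8.84 to 18.8 CPM. Others of that list were not. CD68 stood at 17.0 and 16.3 CPM in null and 12.6 and 6.08 CPM in IMP1-OE. ITGAM was lowest in null replicate 2, with 7 and 2 counts in null against 17 and 17. CD79A was highest in null replicate 1, with 17 and 4 counts against 1 and 0. Of the fibroblast list 4 of 6 genes and of the endothelial list 2 of 4 exceeded the floor in some library, with summed levels of 2.09 to 13.1 and 2.35 to 4.09 CPM. Of the hepatocyte list, ALB and APOA1 had 0 counts in all libraries, and the sum was lowest in null replicate 2 (225 CPM, against 438 to 725 CPM), nearly all of it SERPINA1. The part of other cell types in the members' values was not tested beyond these levels.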

How the data were processed

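RNA of 4 HT-29 libraries was sequenced, 2 null and 2 IMP1-OE. The deposited values are estimated counts for 20322 targets, 1 for each gene, under kallisto's column names (per the file headers), and were whole numbers as deposited. The submitters' processing notes name kallisto 0.46.2, HISAT2 2.1.0, fastp 0.21, cutadapt 3.5 and DESeq, without roles. RNA came from clarified cell lysate, per the labels' protocols. Fragments of 18 to 50 nt carried molecular identifiers, per the labels' protocols. Their use against PCR copies, the build, the annotation and the use of strand were not given in the sources used here. With such short fragments, counts of near-identical genes are uncertain. The authors' deposited comparison table holds log2 fold changes, their errors, p-values and a mean normalized count (a signal value, not used here). Under 2 more sample names, which fit none of the labels, the count table holds values that were not analysed here. Of the gene identifiers, 20299 matched a table of gene names.

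Libraries of a group differed by more than counting noise (chi-square per degree of freedom 45.1 for null, 16.0 for IMP1-OE), so none were merged. Genes were tested on all 4 libraries with edgeR 4.0.16 (R 4.3.3): default low-count filter (12113 genes), TMM scaling and the quasi-likelihood F test, Benjamini-Hochberg adjusted over all genes tested, threshold 0.05. The standard error is the size of the log2 fold change divided by the square root of F. CPM values are TMM-scaled. Ratios between libraries are ratios of CPM, with exact (Clopper-Pearson) 95% intervals from the counts. TPM was computed with the deposited effective lengths. For 2 against 2 libraries, the smallest p of an exact permutation test (two-sided) is 0.333. Alternatives were leaving out each library on the same genes, a replicate block, other filters and scalings, limma-voom (limma 3.58.1) and DESeq2 1.42.0. The fits were tested on simulated counts with the same spread in every library, so a library that stands apart, as here, was not covered.

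All 10 members are named. Of each pathway list, the genes called by edgeR or in the authors' table and up to 4 of smallest p were to be named. Further listed genes were named after their values were seen: JAK1, IRF7, ARIH1, HERC6, STING1, IFITM1, IFNAR2, IL10RB and the ligands. So were the markers CDX1, CDX2, PTPRC, CD79A and ITGAM, and also USP41, IFI27L1 and IFI27L2. The 5 genes nearest to the members' median profile are named. Members and lists were chosen with earlier results of these data known. Promoter sequences are from RefSeq (GRCh38.p14).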

Additional observations from a re-analysis of the deposited data

How the results depend on the processing

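With all 4 libraries kept, the 10 genes' log2 fold changes kept their direction and stayed short of the adjusted threshold under each of 7 other scalings, filters, tools or designs, 70 of 70 values. Over all genes, edgeR called 0, 22 without the low-count filter and 15 with the replicate block, DESeq2 164 and limma-voom 1. The cause was not tested. Members at an unadjusted p under 0.05 numbered 8 in edgeR and 0 in limma-voom. Of the pathway genes tested, edgeR called 0, DESeq2 5 and edgeR with the replicate block 1 (UBE2L6). The labels do not say that the shared replicate numbers mark a pairing. The difference between replicates 1 and 2 correlated at r = 0.14 between the groups, across 12113 genes, which are not independent replicates, and with 2 pairs this cannot show a pairing. The block called 0 of the 10 genes.

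Leaving out a library gave 0 to 783 called genes, 0 to 10 called members, 0 to 10 members at an unadjusted p under 0.05, 0 to 49 called pathway genes, and a members' median from -3.60 (without null replicate 1) to -0.21 (without null replicate 2). Direction turned without null replicate 2 for IFI44L (-5.99 to 0.28 over the omissions), ISG15 (-2.97 to 0.044), USP18 (-3.28 to 0.30) and BST2 (-1.73 to 0.40). Depth limits IFI44L (10 to 13 counts in 3 libraries), HERC5 and UBE2L6 in IMP1-OE, and the interferon ligands.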
